A study of Homo sapiens with 6 samples.

Results

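The data on hyaluronan metabolism comprised 10 genes of the 34486 to which transcripts of the files could be assigned. They were the synthases HAS2 and HAS3, the receptors CD44 and HMMR, the hyaluronidases HYAL1, HYAL2 and HYAL3, the hyaluronan-degrading proteins CEMIP and CEMIP2, and UGDH, which makes a sugar precursor. The members were chosen by function, but also with the HAS3 difference between siPDCD4 and siCT already known from these libraries. The values of that contrast are therefore given as a description of these genes, and the p-values, which come from one model over every gene, are not independent evidence.

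Hyaluronan is a long, unsulphated sugar polymer of the extracellular matrix. Synthases in the plasma membrane build it from UDP-glucuronic acid and UDP-N-acetylglucosamine and push it out of the cell as it grows. Cells bind it mainly through CD44, and it is cut by hyaluronidases and by the CEMIP proteins before lysosomal enzymes break down the pieces. In epithelia, including that of the breast, it is known for its part in adhesion, migration and the hydration of the space between cells.

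The study measured total RNA in MCF10A cells, an immortalised, non-tumorigenic line of human breast epithelium with basal features. The 3 siPDCD4 libraries came from cells transfected with 10 nM of an siRNA product against PDCD4, a tumour suppressor that binds RNA and restrains translation, and the 3 siCT libraries from cells given a control siRNA. Every culture was labelled WT, was harvested after 48 h and grew in the same medium with horse serum, epidermal growth factor, insulin, hydrocortisone and cholera toxin. The knockdown was transient, used a single line and a single product, and the labels leave it unsaid whether the replicates were grown separately, so the tests rest on a spread among libraries that could be technical alone. The comparison asks which transcripts differ in abundance when PDCD4 is depleted.

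Libraries held 13410441 to 21828931 estimated fragments. PDCD4 averaged 8.40 ± 0.88 CPM in siPDCD4 and 80.2 ± 16.5 CPM in siCT (SD, n = 3 each), a log2 fold change of -3.25 ± 0.17 (SE; edgeR adjusted p = 2.16e-05). CPM here are counts scaled to a common library total by TMM, with a correction for the average length of the transcripts found for the gene in each library. All 6 markers listed for basal mammary epithelium were present, with a summed level of 1596 to 2021 TPM (transcript abundance per unit of length, scaled to the same total in each library) in siPDCD4 and 1662 to 2045 TPM in siCT. KRT5 and KRT17 made up most of that sum in every library, and CDH1 and EPCAM in the list are general epithelial genes. The 4 fibroblast markers summed to at most 2.12 TPM and the 2 endothelial markers to at most 0.61 TPM in any library. The 3 leukocyte markers summed to 6.79 to 8.47 TPM in siPDCD4 and 4.35 to 5.71 TPM in siCT, nearly all of it CD14. PTPRC had 0.018 to 0.060 TPM over the 6 libraries, and CD3E was at 0 throughout. Which cells the CD14 RNA came from was not tested. siCT replicate 3, which had the fewest fragments, stood apart on the first principal component (29.3% of the variance) at 30.6, against -16.5 to 8.65 for the other 5 libraries, and values without it are given where a result rests on it. In bulk RNA, fewer cells that express a gene and less RNA per cell cannot be told apart.

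CD44 and HAS3 were read at transcript level, and some of their sequences are shown because the estimates below depend on which exons are joined. CD44, on chromosome 11 from 35138882 to 35232402 on the plus strand (GRCh38), is known for 9 variable exons, v2 to v10, that lie between constitutive exons and are included in various combinations. The first line joins the constitutive exons on either side of that block, as in the standard form CD44-201, and the others join the same upstream exon to the first variable exon of a longer form. The 30 bases in lower case end the upstream exon at position 35190065, and the 30 capitals start the next exon.
CD44-201: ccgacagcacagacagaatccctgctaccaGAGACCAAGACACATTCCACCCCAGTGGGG
CD44-208: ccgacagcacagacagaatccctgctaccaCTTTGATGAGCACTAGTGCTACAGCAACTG
CD44-206: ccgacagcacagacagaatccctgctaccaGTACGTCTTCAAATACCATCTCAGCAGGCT
CD44-209: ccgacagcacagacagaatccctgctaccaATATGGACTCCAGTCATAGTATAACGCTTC
CD44-210: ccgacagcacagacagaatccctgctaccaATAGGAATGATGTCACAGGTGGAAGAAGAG
CD44-208 enters the block at v2 (35196746), CD44-206 at v3 (35198121), CD44-209 at v8 (35208105) and CD44-210 at v10 (35211246), whereas CD44-201 passes straight to the exon at 35214852. The exons v8, v9 and v10 are those that CD44-209, the most abundant variable form here, adds to the standard form.
CD44 v8: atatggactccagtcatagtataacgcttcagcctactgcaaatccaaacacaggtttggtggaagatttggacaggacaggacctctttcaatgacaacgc
CD44 v9: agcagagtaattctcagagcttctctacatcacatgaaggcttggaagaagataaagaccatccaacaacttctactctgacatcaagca
CD44 v10: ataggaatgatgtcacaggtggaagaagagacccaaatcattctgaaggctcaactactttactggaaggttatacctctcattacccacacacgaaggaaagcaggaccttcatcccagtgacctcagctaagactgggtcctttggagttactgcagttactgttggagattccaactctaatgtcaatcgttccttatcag
They span 102, 90 and 204 bases, and the coding sequence is 361 codons long in CD44-201 and 493 codons long in CD44-209. All sequences were read from GENCODE release 44, whose transcript lengths and versions equal those in the files for the transcripts shown.

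HAS3, on chromosome 16 from 69105653 to 69118719 on the plus strand, has a full-length form, HAS3-205, with 553 codons, and shorter forms such as HAS3-201 with 281 codons. The pair below share the exon that ends at 69113542 (lower case) and part at the next one (capitals), which starts at 69114343 in HAS3-205 and at 69118355 in HAS3-201.
HAS3-205: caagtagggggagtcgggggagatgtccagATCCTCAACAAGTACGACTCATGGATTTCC
HAS3-201: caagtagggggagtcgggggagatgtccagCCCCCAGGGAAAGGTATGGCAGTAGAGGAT
Counts assigned to the short forms enter the length correction for HAS3 below.

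Of the synthases, which polymerise hyaluronan, HAS3 was higher in every siPDCD4 library and passed the threshold, while HAS2 was lower in every siPDCD4 library and did not pass it. HAS3, described as the maker of shorter chains than HAS2, had 8.56, 16.0 and 9.91 CPM in the siPDCD4 libraries, against 4.28, 4.21 and 2.85 CPM in the siCT libraries. The groups did not overlap, and siPDCD4 replicate 2 was the highest. The log2 fold change was 1.58 ± 0.27 (SE, n = 3 per group), and HAS3 was the 1 gene of the 10 that passed the 5% false discovery rate in edgeR (adjusted p = 0.0359). Over all 13047 genes tested 56 passed, a background of 0.429%, and 22 of them, 0.169%, were higher in siPDCD4. The contrast that chose the genes is the one counted here, so nothing is read from 1 in 10.

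The counts behind HAS3 were 169, 177 and 177 in siPDCD4, against 81, 77 and 39 in siCT. They were nearly equal in the 3 siPDCD4 libraries, of which replicate 2 had the fewest fragments (15547679) and the shortest average effective length of HAS3, 2791 bases against 3996 and 3989 bases in siPDCD4 replicates 1 and 3. There, 11.4 counts were assigned to HAS3-203, 3.31 to HAS3-201 and 1 to HAS3-204, the short forms. In siCT replicates 1, 2 and 3 the average effective length of HAS3 was 3300, 3781 and 3997 bases. Without the length correction HAS3 had 9.47, 12.3 and 11.0 CPM in siPDCD4, against 3.94, 4.38 and 3.18 CPM in siCT, and its log2 fold change was 1.50 ± 0.17 (adjusted p = 0.0019). Replicate 2 was the highest siPDCD4 library there too, by a smaller margin. Without siPDCD4 replicate 2 the log2 fold change was 1.28 (adjusted p = 0.1), and without siCT replicate 3 it was 1.42 (adjusted p = 0.119). HAS3 passed the threshold in none of the 6 fits with 1 library left out, nor in limma-voom (adjusted p = 0.0613), and it passed in the other 7 alternatives.

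HAS2 (chromosome 8, 121612116 to 121641440, minus strand), often the main synthase of mesenchymal and wounded tissues, had 0.392, 0.490 and 0.619 CPM in siPDCD4, against 1.06, 1.03 and 1.29 CPM in siCT. Here every siPDCD4 library lay below every siCT library. These levels rest on 7, 7 and 10 counts in siPDCD4 and on 22, 18 and 16 counts in siCT, all on the gene's single transcript. The log2 fold change of -1.16 ± 0.38 did not pass the threshold (adjusted p = 0.352), and it was -1.06 without siCT replicate 3 (adjusted p = 0.372). HAS2 reached the minimum of 0.594 CPM, in 3 libraries, that the test required through all 3 siCT libraries and 1 siPDCD4 library, so its passing the filter was tied to the group in which it is high.

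Per unit of length, HAS3 made up most of the synthase RNA in both groups. HAS3 averaged 2.87 ± 1.00 TPM in siPDCD4 and 0.93 ± 0.22 TPM in siCT, and HAS2 0.112 ± 0.024 TPM in siPDCD4 and 0.248 ± 0.026 TPM in siCT (SD, n = 3 each). HAS3 thus accounted for 96.1%, 97.3% and 94.7% of the summed HAS2 and HAS3 TPM in siPDCD4, against 81.8%, 82.1% and 71.2% in siCT. The ranges did not overlap, as follows from the 2 genes themselves. Counting HAS3-205 alone, the share averaged 95.6 ± 0.74% in siPDCD4 and 76.8 ± 5.1% in siCT. The remaining synthase gene, HAS1, had 0 counts in all 6 libraries, and a count of 0 allows up to 3 counts, which is 0.137 to 0.224 CPM depending on the library and covers counting error only.

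**Figure D1:**
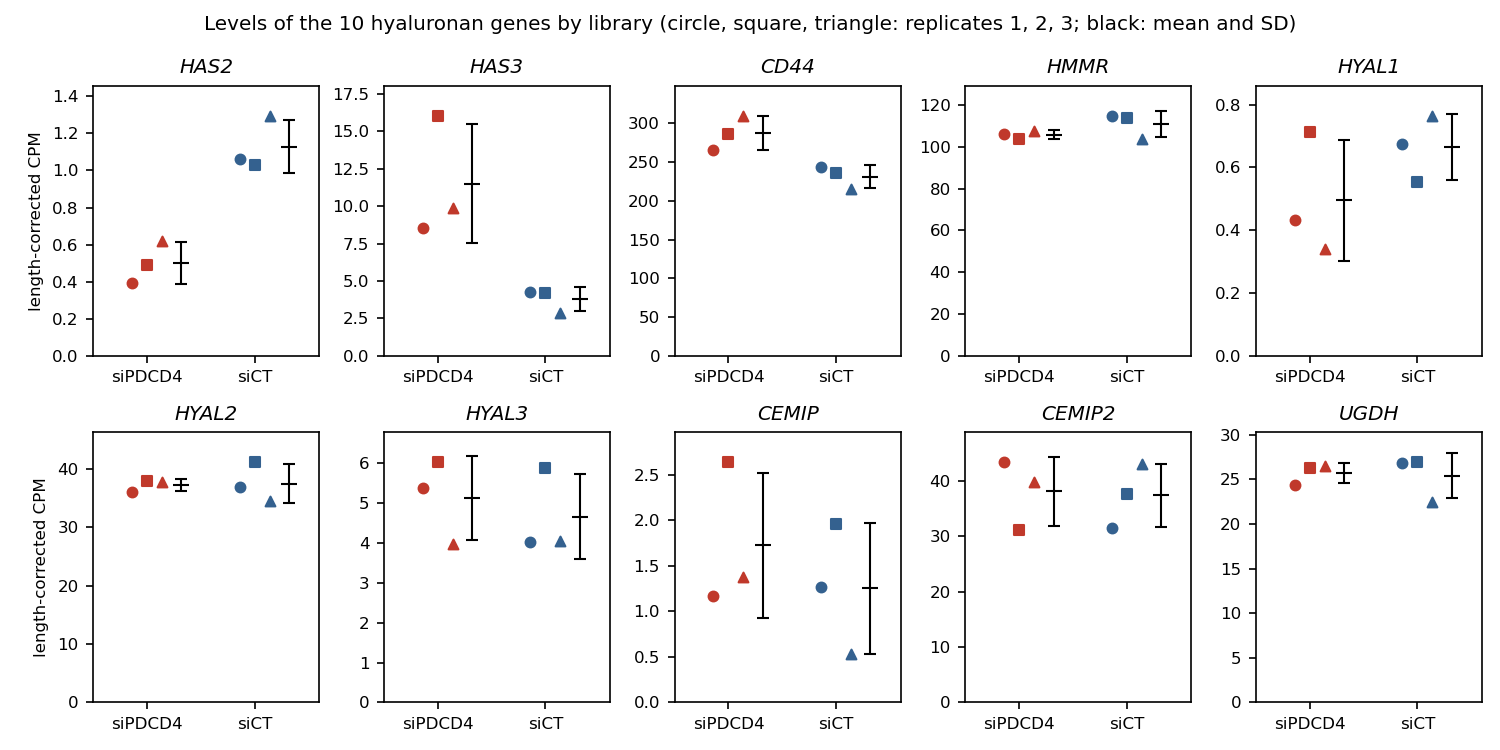
Length-corrected CPM (vertical axes, from 0) of each hyaluronan gene in the 3 siPDCD4 and 3 siCT libraries; points are libraries and the black bars are means with SD. HAS3 and CD44 lie higher in every siPDCD4 library, HAS2 lies lower in every siPDCD4 library, and the groups of the other 7 genes overlap.

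UGDH (chromosome 4, 39498755 to 39528311, minus strand), which oxidises UDP-glucose to the UDP-glucuronic acid that synthases use, had 24.4, 26.2 and 26.5 CPM in siPDCD4, against 26.8, 26.9 and 22.5 CPM in siCT. The groups overlapped, and the log2 fold change was 0.01 ± 0.12 (adjusted p = 0.992). Its main transcript, UGDH-201, held 71.9 ± 2.4% of the gene's counts in siPDCD4 and 73.6 ± 7.4% in siCT, and UGDH-206 held 22.1 ± 0.1% in siPDCD4 and 17.7 ± 4.6% in siCT (SD, n = 3 each).

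Among the receptors, CD44 was higher in every siPDCD4 library but did not pass the threshold, and HMMR overlapped between the groups. CD44, the main cell-surface receptor for hyaluronan, had 266, 286 and 310 CPM in siPDCD4, against 243, 236 and 215 CPM in siCT. The log2 fold change was 0.31 ± 0.09 (SE, n = 3 per group), with an adjusted p of 0.242 in edgeR and 0.0569 in DESeq2. Without siCT replicate 3, which was the lowest, it was 0.26 (adjusted p = 0.268). HMMR (chromosome 5, 163460203 to 163491941, plus strand), which binds hyaluronan and also organises the mitotic spindle inside the cell, had 106, 103 and 108 CPM in siPDCD4, against 115, 114 and 103 CPM in siCT, which fitted to -0.07 ± 0.08 on the log2 scale (adjusted p = 0.943). HMMR-203 held 79.7 ± 7.6% of its counts in siPDCD4 and 81.3 ± 7.0% in siCT, and HMMR-204 held 14.4 ± 3.9% in siPDCD4 and 13.8 ± 4.2% in siCT.

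Of the 10 genes, 3 had groups that did not overlap in CPM, HAS2, HAS3 and CD44. Over all genes tested 1820 did so, 13.9%. Without the length correction the count was 4, with CEMIP added, against a background of 16.2%. The median log2 fold change of the 10 genes was 0.02, with 6 above 0 and 4 below, beside a median of -0.01 over all genes tested.

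At transcript level the most abundant CD44 forms had higher means in siPDCD4, with similar shares of the gene's counts in both groups. The files list 38 CD44 transcripts, of which 35 had counts and 3 averaged 5% or more of all CD44 counts. CD44-201, the standard form whose junction opens the sequences above, had 39.7, 41.3 and 45.3 TPM in siPDCD4, against 34.2, 34.4 and 29.2 TPM in siCT. CD44-209, with v8 to v10, averaged 16.3 ± 1.8 TPM in siPDCD4 and 13.0 ± 3.1 TPM in siCT, and CD44-206, with v3 to v10, 8.24 ± 2.21 TPM in siPDCD4 and 5.93 ± 0.41 TPM in siCT (SD, n = 3 each). The groups of CD44-201 did not overlap. The shares of the gene's counts overlapped between the groups for all 3, at 65.5 ± 1.5% in siPDCD4 and 65.7 ± 1.5% in siCT for CD44-201, 13.0 ± 1.2% in siPDCD4 and 13.3 ± 2.2% in siCT for CD44-209, and 6.88 ± 2.02% in siPDCD4 and 6.41 ± 0.96% in siCT for CD44-206. Of the 16 CD44 transcripts tested 13 had a log2 fold change above 0, and none passed the 5% false discovery rate. They divide the counts of a gene whose total was itself higher, so they are not separate observations. The share above 0 over all transcripts is not given here, so nothing is read from that count.

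No transcript of any gene passed in edgeR, 0 of 47375, a background of 0%, while 1473 had an unadjusted p under 0.05 and DESeq2 called 374. Those of PDCD4, whose gene total had a log2 fold change of -3.25, thus did not pass either. Not passing in this transcript test therefore does not show that a transcript was unchanged. Of the 35 transcripts of the 10 genes that were tested, 3 had an unadjusted p under 0.05. They were HAS3-205, fitted at 1.49 ± 0.21 on the log2 scale (adjusted p = 0.304), CD44-201 with 0.36 ± 0.11 and HAS2-201 with -1.15 ± 0.42 (adjusted p = 1 for both). In DESeq2, HAS3-205 was the only one of them called (adjusted p = 5.51e-05). HAS3-205 had 169, 161 and 177 counts in siPDCD4, against 78.8, 75.5 and 39.0 counts in siCT, so the full-length form carried nearly all HAS3 counts in every library.

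The measures of CD44 exon use gave different answers. When every transcript with an exon inside the variable region was counted, 26 of the 38, they held 51.0%, 51.2% and 52.2% of CD44 TPM in siPDCD4, against 48.2%, 46.9% and 47.0% in siCT. The groups did not overlap, and the difference of 4.11 points had p = 0.1 in an exact two-sided permutation test, the smallest p that 3 against 3 libraries allow. Without siCT replicate 3 the difference was 3.93 points. Counted over the 9 transcripts that hold both flanking exons, so that skipping and inclusion are both visible, the share was 40.9%, 44.6% and 42.2% in siPDCD4, against 41.5%, 44.2% and 42.6% in siCT, a difference of -0.21 points (exact p = 0.8). This second measure was added after the values were seen. The remaining transcripts with exons in the variable region lack at least 1 of the flanking exons, and retained-intron models are among them, so the first measure does not show exon inclusion directly.

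Among the transcripts with both flanks, v8 and v9 were in 37.7 ± 3.2% of TPM in siPDCD4 and 39.8 ± 2.4% in siCT, and v10 in 37.3 ± 1.5% in siPDCD4 and 35.8 ± 2.5% in siCT. The exon v3 was in 12.5 ± 1.6% in siPDCD4 and 12.0 ± 0.8% in siCT, the exons v4 to v7 in 11.8 ± 2.2% in siPDCD4 and 11.2 ± 0.9% in siCT, and v2 in 0.97 ± 0.84% in siPDCD4 and 0.85 ± 0.60% in siCT (SD, n = 3 each). The groups overlapped at each exon. In every library v8, v9 and v10 were each in more RNA than any of v2 to v7.

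**Figure D2:**
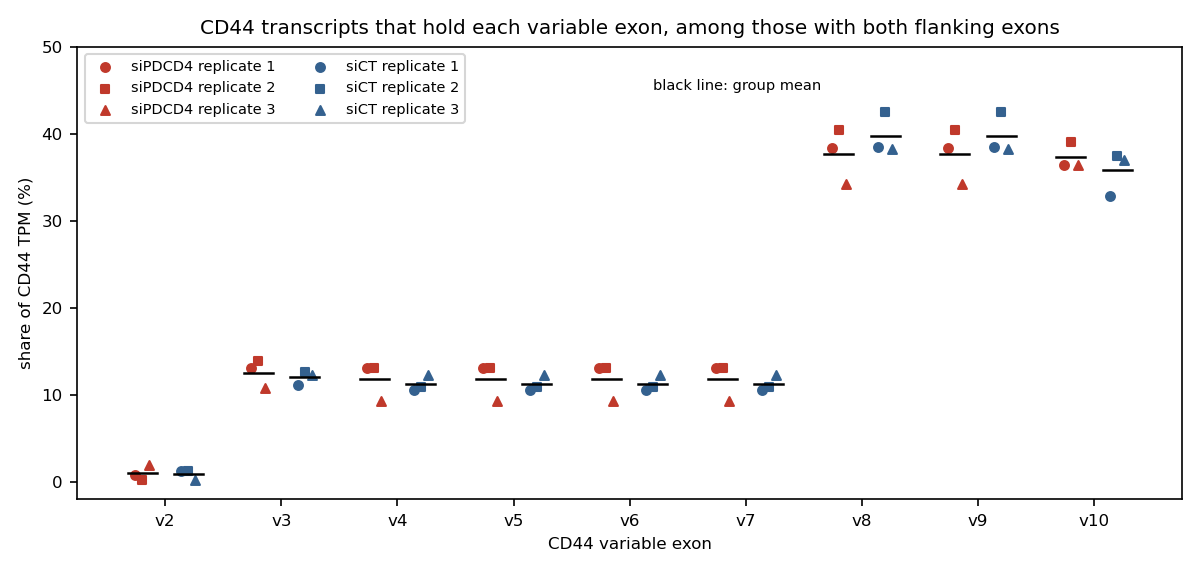
Share of CD44 TPM (vertical axis, percent) in transcripts that hold each variable exon (horizontal axis), among the 9 transcripts with both flanking exons; points are libraries and black lines are group means. Means lie near 1% at v2, between 11.2% and 12.5% at v3 to v7 and between 35.8% and 39.8% at v8 to v10, and siPDCD4 and siCT overlap at each exon.

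In a test of whether transcripts of a gene shift relative to each other, 35 of 7896 genes passed, 0.443%. The 5 of the 10 genes with at least a pair of transcripts to compare, CD44, HMMR, HYAL2, CEMIP2 and UGDH, had unadjusted p of 0.851 or more, and none passed. The other 5 did not have 2 transcripts that passed the filters. For CD44 the test compared 3 transcripts, so it does not address single exons. The paper names CD44 among the skipped-exon events it called from junction counts, a measure not used here.

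The hyaluronidases HYAL3, HYAL1 and HYAL2, whose genes lie side by side on the minus strand of chromosome 3 between 50292831 and 50322782, did not pass the threshold. HYAL2, a membrane-anchored enzyme that cuts long chains at the cell surface, had 36.0, 37.9 and 37.8 CPM in siPDCD4, against 36.8, 41.1 and 34.5 CPM in siCT, and the fitted log2 difference was -0.01 ± 0.10 (adjusted p = 0.993). HYAL2-201 held 88.4 ± 0.4% of its counts in siPDCD4 and 91.1 ± 2.0% in siCT, and HYAL2-208 5.77 ± 2.34% in siPDCD4 and 4.61 ± 1.05% in siCT. HYAL3, whose own enzyme activity is disputed, had 5.39, 6.02 and 3.98 CPM in siPDCD4, against 4.03, 5.89 and 4.05 CPM in siCT, and the fitted log2 difference was 0.14 ± 0.25 (adjusted p = 0.971). The groups overlapped for both genes. From start to end, HYAL2 overlaps TUSC2 by 2756 bases and HYAL3 overlaps NAA80 by 3004 bases on the same strand. Whether their exons overlap was not examined, so the division of counts between these neighbours may be uncertain.

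HYAL1, the lysosomal hyaluronidase, was near the limit of detection, with 11, 11 and 3 counts in siPDCD4 and 17, 10 and 9 counts in siCT. Its levels of 0.433, 0.711 and 0.341 CPM in siPDCD4, against 0.676, 0.555 and 0.764 CPM in siCT, overlapped, and the log2 fold change was -0.38 ± 0.43 (adjusted p = 0.931). At this depth no difference was detectable. The forms to which Salmon assigned HYAL1 and HYAL3 differed between libraries of 1 group. HYAL1-201 had 5.65, 10 and 0 counts in siPDCD4 and 16, 4.22 and 4.73 counts in siCT. HYAL3-207 had 0, 65.7 and 55.4 counts in siPDCD4 and 0 in each siCT library, while HYAL3-201, with the same 417 codons, had 74.8, 8.31 and 0 counts in siPDCD4 and 53.2, 100.3 and 48.4 counts in siCT. In each library only 1 of these HYAL3 forms held many counts, so the groups are compared by gene totals.

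CEMIP2 (chromosome 9, 71683366 to 71816690, minus strand), a transmembrane protein described as a cell-surface hyaluronidase, had 43.3, 31.1 and 39.8 CPM in siPDCD4, against 31.5, 37.7 and 42.9 CPM in siCT, and the fitted log2 difference was 0.03 ± 0.15 (adjusted p = 0.987). Its main transcript, of 6152 bases, held 86.8 ± 3.5% of its counts in siPDCD4 and 86.0 ± 3.7% in siCT, and a form of 5217 bases held 10.7 ± 4.8% in siPDCD4 and 10.9 ± 4.1% in siCT (SD, n = 3 each). The libraries of both groups spread over the same range.

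CEMIP (chromosome 15, 80779343 to 80951776, plus strand), needed for the breakdown of hyaluronan in skin fibroblasts, was the gene whose value depended most on the length correction. It had 35, 29 and 38 counts in siPDCD4, against 12, 20 and 11 counts in siCT, with every siPDCD4 library above every siCT library. Without the length correction this gave 1.96, 2.02 and 2.36 CPM in siPDCD4, against 0.583, 1.14 and 0.897 CPM in siCT, with a fitted log2 difference of 1.28 ± 0.31 (adjusted p = 0.096). With the correction the levels were 1.17, 2.63 and 1.37 CPM in siPDCD4, against 1.26, 1.96 and 0.529 CPM in siCT, which overlap, and the log2 fold change was 0.48 ± 0.50 (adjusted p = 0.919). CEMIP reached the minimum of 0.594 CPM, required in 3 libraries, in all 3 siPDCD4 libraries and in 2 siCT libraries. The siCT libraries alone would not have met it. The average effective length of CEMIP was 7031, 3219 and 7151 bases in siPDCD4 and 1918, 2437 and 7032 bases in siCT. The short lengths came with 1 count on CEMIP-204 (385 bases) in siPDCD4 replicate 2, 1.38 counts on CEMIP-205 (488 bases) in siCT replicate 1 and 2.67 counts on CEMIP-206 (648 bases) in siCT replicate 2. Full-length forms of 1361 codons held the other counts, but Salmon assigned them to CEMIP-201 in siPDCD4 replicates 1 and 2 (35 and 28 counts) and to CEMIP-203 in siPDCD4 replicate 3 (38 counts), and in siCT to CEMIP-201 in replicates 1 and 3 (10.6 and 11 counts) and to another model in replicate 2 (17.3 counts). With the correction the log2 fold change was 0.09 without siPDCD4 replicate 2, 0.99 without siCT replicate 2 and 0.02 without siCT replicate 3. CEMIP overlaps MESD on the opposite strand by 5488 bases.

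**Figure D3:**
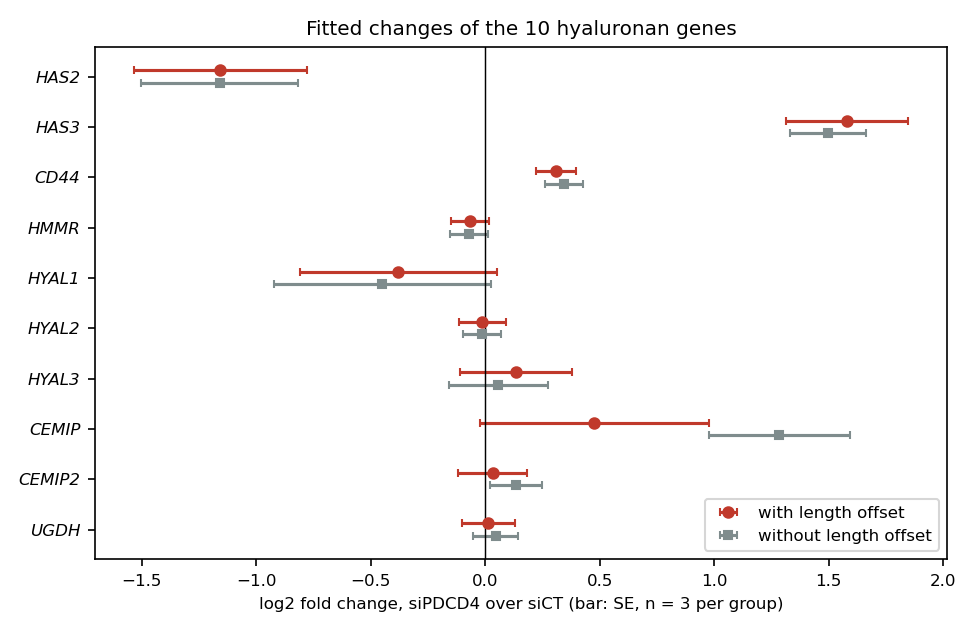
Log2 fold change of siPDCD4 over siCT (horizontal axis) for each hyaluronan gene, with the length correction (circles) and without it (squares); bars are standard errors from edgeR, n = 3 libraries per group. HAS3 lies at 1.58 and 1.50, HAS2 at -1.16 in both, and CEMIP at 0.48 with the correction and 1.28 without it.

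The order of levels per unit of length was nearly the same in both groups. CD44 was highest, with 121 ± 8.2 TPM in siPDCD4 and 96.1 ± 8.0 TPM in siCT (SD, n = 3 each), followed by HMMR with 41.4 ± 0.7 TPM in siPDCD4 and 42.7 ± 3.6 TPM in siCT. HYAL2 came next with 19.8 ± 0.5 TPM in siPDCD4 and 19.7 ± 2.5 TPM in siCT, then UGDH with 12.3 ± 0.5 TPM in siPDCD4 and 12.0 ± 1.5 TPM in siCT. CEMIP2 had 7.37 ± 1.23 TPM in siPDCD4 and 7.13 ± 1.10 TPM in siCT. Each of these 5 was separate from the next in every library. HYAL3 followed with 2.95 ± 0.62 TPM in siPDCD4 and 2.65 ± 0.73 TPM in siCT, and its range overlapped that of HAS3 in siPDCD4 but not in siCT. CEMIP, with 0.372 ± 0.172 TPM in siPDCD4 and 0.270 ± 0.164 TPM in siCT, could not be placed above or below HYAL1, with 0.309 ± 0.121 TPM in siPDCD4 and 0.407 ± 0.050 TPM in siCT. HAS2 had the lowest mean in both groups, and in siCT it overlapped CEMIP.

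Further genes of the pathway were taken from 6 lists grouped by function, 60 genes in all, of which 39 could be tested. None passed the 5% false discovery rate in edgeR, against 56 of all 13047 genes tested, 0.429%. Of the 39 genes, 6 had an unadjusted p under 0.05, and DESeq2 called 3, against 181 genes in all. The matching shares over all genes were not computed for these counts, so nothing about the pathway is read from them. All 11 genes listed under precursor supply were tested, 7 above 0 and 4 below, with a median log2 fold change of 0.04. Apart from UXS1, which is among those below 0, they help turn glucose and fructose phosphate into UDP-sugars. GFPT2, an enzyme at the entry of the hexosamine pathway, had 8.54, 8.01 and 12.0 CPM in siPDCD4, against 5.61, 4.06 and 6.03 CPM in siCT, and its fitted log2 difference was 0.87 ± 0.23 (adjusted p = 0.204). Among the alternatives it passed only without the length correction (0.88, adjusted p = 0.0226). For UGP2, which makes the UDP-glucose that UGDH uses, the fitted log2 difference was -0.24 ± 0.08 (adjusted p = 0.366).

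Of the lysosomal enzymes that trim hyaluronan fragments from their ends, HEXA had a fitted log2 difference of 0.06 ± 0.10 (adjusted p = 0.966) and GUSB one of 0.00 ± 0.10 (adjusted p = 0.996). Of the other synthase and hyaluronidase genes, HAS1 and SPAM1 had 0 counts in every library, and HYAL4 had 3, 4 and 7 counts in siPDCD4 and 1, 0 and 3 counts in siCT.

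Only 7 of the 25 other hyaluronan-binding proteins and receptors were expressed enough to test, 2 above 0 and 5 below, with a median log2 fold change of -0.10. The smallest p-values belonged to HABP4, an intracellular protein named for hyaluronan binding, at 0.23 ± 0.19 (adjusted p = 0.872) and C1QBP, a largely mitochondrial protein, at -0.10 ± 0.11 (adjusted p = 0.926). Among the 10 partners, splicing factors and sheddases of CD44, 4 were above 0 and 6 below, with a median of -0.03. MMP14, a membrane protease that cleaves CD44, had 93.1, 104 and 110 CPM in siPDCD4, against 72.7, 83.4 and 80.3 CPM in siCT, and the fitted log2 difference was 0.38 ± 0.10 (adjusted p = 0.183 in edgeR and 0.0421 in DESeq2). RDX, which ties the CD44 tail to actin, had -0.27 ± 0.08 (adjusted p = 0.287). ESRP1 and ESRP2, the epithelial factors that favour variable CD44 exons, had log2 fold changes of -0.03 and 0.11 and were chosen for mention after their values were seen.

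The 8 mitotic genes beside HMMR had a median log2 fold change of -0.03, with 2 above 0 and 6 below. BRCA1, a repair protein that also acts on HMMR at the spindle, had 78.1, 75.9 and 60.6 CPM in siPDCD4, against 47.4, 53.5 and 55.3 CPM in siCT, and the fitted log2 difference was 0.46 ± 0.12 (adjusted p = 0.187 in edgeR and 0.036 in DESeq2). Without the length correction it was 0.19 (adjusted p = 0.418). PLK1, a mitotic kinase, had -0.17 ± 0.11 (adjusted p = 0.82).

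**Figure D4:**
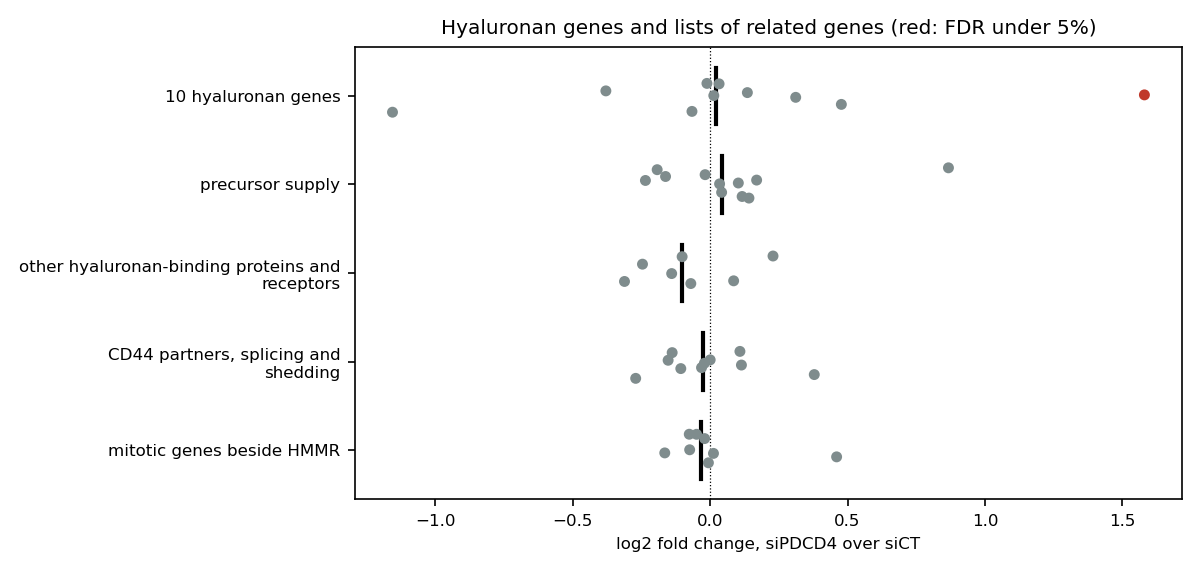
Log2 fold change of siPDCD4 over siCT (horizontal axis) for each tested gene of the 10 hyaluronan genes and of 4 lists of related genes; grey points did not pass the 5% false discovery rate, red points did, and black lines are medians. HAS3 at 1.58 is the only red point, and the list medians lie between -0.10 and 0.04.

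The profile of HAS3 over the 6 libraries was set against 12248 other genes with a mean of at least 1 CPM, by the root mean square difference of centred log2 CPM. The nearest was ST6GALNAC2, a sialyltransferase, at 0.137, followed by CAMK2B, a kinase subunit, at 0.307, NRARP, a Notch regulator, at 0.309, NIPAL4, a magnesium transporter, at 0.314 and ENTPD2, an ectonucleotidase, at 0.315. The median over all compared genes was 0.868. ST6GALNAC2 had 5.79, 8.13 and 6.13 CPM in siPDCD4, against 2.64, 2.58 and 1.92 CPM in siCT, so that, as for HAS3, siPDCD4 replicate 2 was the highest library and siCT replicate 3 the lowest. Its average effective length was 1581, 1078 and 1412 bases in siPDCD4, shortest in replicate 2. Without the length correction it had 6.28, 6.00 and 5.95 CPM in siPDCD4, against 3.11, 2.90 and 1.88 CPM in siCT. Replicate 2 was then not its highest library. The distances were computed on length-corrected values only. All 5 had every siPDCD4 library above every siCT library, a pattern that the measure of likeness itself selects.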

How the data were processed

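Total RNA of 6 MCF10A samples (3 siPDCD4, 3 siCT) was sequenced as stranded paired-end libraries. The authors estimated transcript abundance with Salmon (version not given in the sources used here) against a GRCh38 transcriptome, and deposited, per library, expected counts, TPM and lengths for 194142 transcripts. Identifiers were matched to GENCODE release 44. Of these, 181244 matched, and 12898, holding 5.47 to 6.21% of counts, were left out. Genes came to 34486. The deposited TPM were summed per gene for levels. The deposited estimated counts were summed per gene and rounded.

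Genes were filtered (filterByExpr, minimum count 10) and tested with edgeR 4.0.16 (R 4.3.3), using TMM factors, an offset for average effective transcript length and the quasi-likelihood test, with Benjamini-Hochberg adjustment over all tested genes at 5%. Transcripts were tested likewise without the offset, and isoform shares with diffSpliceDGE over transcripts with at least 5% of a gene's counts. Single shares were compared by exact permutation. DESeq2 1.42.0 and limma 3.58.1 served as alternatives, along with other scaling, filters, no offset, a replicate block and each library left out. The scripts were tested on simulated data without the length offset, so the simulation did not check that step.

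The members and the gene lists were chosen with earlier results of these data known. Named were the 10 genes, PDCD4, their transcripts with at least 5% of counts, genes of each list past the threshold or else up to 2 with the smallest p, and the 5 genes nearest to HAS3. One gene that this rule names is not reported here. One abundant processed pseudogene transcript took 5.72 to 16.0% of counts per library. Counting error sets the precision of genes with few counts, and intervals for Salmon's assignment between transcripts were not used here.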

Additional observations from a re-analysis of the deposited data

How the results depend on the processing

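Across alternatives, direction held for HAS2, HAS3, CD44, HMMR, HYAL1, HYAL3 and CEMIP (HYAL1 was not tested with the stricter filter). The log2 fold change of HAS3 lay between 1.28 and 1.76 without 1 library and between 1.50 and 1.59 otherwise. The other 3 genes, near 0, turned sign only without 1 library, with ranges of -0.066 to 0.060 for HYAL2, -0.080 to 0.158 for CEMIP2 and -0.063 to 0.056 for UGDH. Genes called numbered 128 without the length offset, 181 in DESeq2, 108 without the filter, and 17 to 40 without 1 library (17 when siPDCD4 replicate 1 was left out, 22 for siPDCD4 replicate 2, 30 for siPDCD4 replicate 3 and 32 for siCT replicate 2), against 56. Of the 10 genes 0 were called in limma-voom and 0 without any 1 library, where HAS3 had an adjusted p of 0.0522 to 0.119, against 1. Of the pathway genes 1 was called without the length offset (GFPT2), 1 without the filter and 3 in DESeq2 (MMP14 and BRCA1 among them), against 0. DESeq2 called 374 transcripts, 1 of them of the 10 genes. Isoform shares called were 10 with a minimum share of 10% and 39 to 50 without 1 library, against 35. The cause of these differences was not tested.

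The difference in CD44 variable share was 1.12 points over counts (exact p = 0.3), 2.90 over protein-coding transcripts (exact p = 0.1), 3.73 to 4.51 without 1 library and -0.21 among transcripts with both flanks, the last chosen after seeing the data. Whether replicate numbers pair the samples was not settled. Libraries of the same number had correlations of 0.07, 0.12 and 0.18, and those of different numbers had -0.19 to 0.10. The 0.10 was between siPDCD4 replicate 1 and siCT replicate 2, above the 0.07 of siPDCD4 replicate 1 with siCT replicate 1. A replicate block gave 102 genes called, all 56 of the unblocked calls among them, and 18 isoform shares, and HAS3 had an adjusted p of 0.0204. All 20 mean TPM levels rose when recomputed from counts and lengths over the matched genes, CD44 in siPDCD4 from 121 to 126.7 TPM for example. The rise exceeded 1 SD for 3, HMMR, HYAL2 and UGDH in siPDCD4 (43.4, 20.7 and 12.9 TPM), where the SD was small for the level. With 7 to 22 counts, depth limits HAS2, and likewise HYAL1 and CEMIP.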
